A study of Mus musculus with 11 samples.

Results

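The CADM family was followed in primary hippocampal neurons that received a synthetic copy of 1 microRNA. The members were taken by gene name as Cadm1, Cadm2, Cadm3 and Cadm4, 4 of the 48709 genes in the count tables, and all 4 were among the 17365 genes with enough counts to be tested. RNA was sequenced from 6 control and 5 mimic samples. In both groups the cells came from hippocampi of CD1 mouse embryos of embryonic day 17, with tissue of several embryos pooled during preparation, and were grown to day 12 in vitro. On day 10 in vitro lipid nanoparticles were added, which carried the miR-181a-5p mimic in the mimic group and a negative control oligonucleotide in the control group, and RNA was taken 48 hours later. Per the methods of the study, the protein ApoE4 was added with the nanoparticles of both groups, so that the controls carried it too. The labels name no genetic change in either group. They do not say whether samples of a group came from separate cultures, so the p-values measure the spread between these samples, which may be technical.

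CADM proteins, also called SynCAMs or nectin-like proteins, are membrane proteins of the immunoglobulin superfamily that bind one another across the contact between cells. At synapses they span the cleft, and their short cytoplasmic tails bind scaffold proteins with PDZ domains, such as Cask and Apba1 (Mint1), and membrane skeleton proteins of the Epb41 family. Cadm1 and Cadm2 are known to promote synapse formation, whereas Cadm3 on axons and Cadm4 on myelinating glia are known as a pair of binding partners between axon and glial cell. A microRNA recognises messages by its seed, bases 2 to 8 counted from the 5′ end, chiefly through matching letters in the untranslated stretch after the stop codon (3′ UTR), and such pairing commonly lowers the amount of the message or its translation.

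The oligonucleotides are shown with the seed in capitals, because the seed defines the sites that were looked for in the CADM genes. The mimic was identical to mouse miR-181a-5p in RefSeq, and 3 further members of its family in RefSeq have the same seed.
miR-181a-5p mimic: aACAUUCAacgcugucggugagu
mmu-miR-181b-5p: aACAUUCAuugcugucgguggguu
mmu-miR-181c-5p: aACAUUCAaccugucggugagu
mmu-miR-181d-5p: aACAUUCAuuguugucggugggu
negative control: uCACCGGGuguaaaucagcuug

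The letters that pair with the mimic's seed are TGAATGT. On the strand of the message, they were searched in the longest 3′ UTR that the annotation gives each gene, together with the form extended by an A (TGAATGTA), the form without its first T but with the A (GAATGTA) and the shared core (GAATGT). The forms overlap, so a TGAATGT match also holds the core. Among 14481 tested genes with an annotated 3′ UTR, 18.5% held TGAATGT, 6.00% TGAATGTA, 12.8% GAATGTA and 36.7% GAATGT. Cadm2 held 2 matches of TGAATGT and 1 of GAATGTA, and counting these it held 4 of the core. Cadm1 and Cadm3 each held 1 match of the core alone, and Cadm4 held none of these forms. None of the 4 genes held TGAATGTA. The predicted target list of the study for miR-181a-5p named none of the 4 genes.

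The matches are printed with 10 to 12 letters before and after, because they show which CADM message carries the letters of the mimic's seed. Coordinates are on GRCm38, the sequence is that of the message, and capitals mark the match. Of the 6 matches, 4 lie in the Cadm2 3′ UTR on the minus strand of chromosome 16, at 568, 3018, 4531 and 6096 bases after the stop codon.
Cadm2 core, chr16:66662509-66662537: gtgtagtttctgGAATGTttgagattata
Cadm2 TGAATGT, chr16:66660059-66660087: cttttccttttTGAATGTcctgggaagaa
Cadm2 GAATGTA, chr16:66658546-66658574: aatttattcaaaGAATGTAagatatattt
Cadm2 TGAATGT, chr16:66656981-66657009: gatgtgttgacTGAATGTcataaatagaa
Cadm1 core, chr9:47850558-47850586, plus strand: aacaaaaacaaaGAATGTtctttgaaagt
Cadm3 core, chr1:173336870-173336898, minus strand: gccccctgtacaGAATGTctgctttgggt

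**Figure D1:**
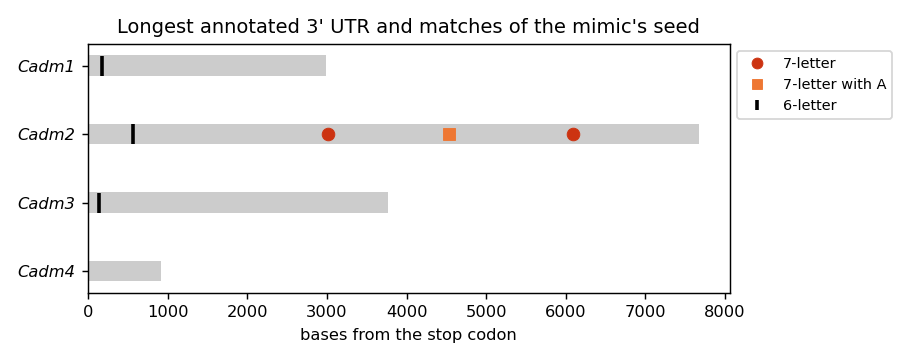
Longest annotated 3′ UTR of each CADM gene (grey bar, bases from the stop codon) with matches of the mimic's seed: circles TGAATGT, square GAATGTA, ticks GAATGT alone. Cadm2 has the longest 3′ UTR, 7672 bases, and is the sole CADM gene with a 7-letter match.

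The 4 genes differ widely in their 3′ UTRs. That of Cadm2 was 7672 bases long with 32.4% G and C, longer than in 98.9% of tested genes, whose median was 1201 bases. Those of Cadm3 and Cadm1 were 3763 and 2995 bases long, with 52.4% and 38.4% G and C. That of Cadm4 was the shortest, 918 bases with 55.4% G and C. A longer 3′ UTR offers more room for any 7 letters, so the matches in Cadm2 are a description and not evidence of a site in use. The 7 letters for the seed of the negative control, CCCGGTG, occurred in 2.87% of the genes and in none of the 4 CADM genes. The study also worked with miR-148a-3p and miR-146a-5p, which were not added to these cells. It tested the Cadm3 3′ UTR in a luciferase assay with mimics of these and of miR-181a-5p. The paper reports regulation of selected candidate genes from that assay, without values per microRNA in its text. By qPCR it reports that Cadm3 expression was reinstated in the hippocampus of old mice given inhibitors of all these microRNAs. TGCACTG, which pairs with the seed of miR-148a-3p, occurred in 15.2% of the genes and once in Cadm1, and Cadm1 was on the predicted target list of the study for that microRNA. AGTTCTC, which pairs with the seed of miR-146a-5p, occurred in 12.6% of the genes and in the longest 3′ UTR of none of the 4, but once in a shorter 3′ UTR of Cadm1.

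Poly(A) RNA libraries do not measure the mimic, so its uptake cannot be read from these files. Total counts ranged from 17287168 to 48091231 per sample. Of 8 neuron markers, none passed the test, and their summed level was 8389 to 8572 CPM (control) and 8298 to 8521 CPM (mimic), where CPM are counts scaled to a common library size with TMM factors. Map2, a dendritic microtubule protein, was the most abundant of them. The cultures also held astrocyte RNA, with a summed level of 6 markers of 4453 to 4834 CPM in the controls against 4096 to 4339 CPM with the mimic. Slc1a2, the main astrocyte glutamate transporter and the most abundant marker, was lower by 0.18 on the log2 scale (edgeR adjusted p = 9.9e-05), from 2398 to 2109 CPM, and made up most of the difference in that sum. The other 5 did not pass, with log2 fold changes of -0.14 for Gfap, -0.11 for Aqp4, -0.0013 for Aldh1l1, 0.0012 for Slc1a3 and 0.055 for Gja1. Of the 10 oligodendrocyte lineage markers, 9 were tested and none passed, and their summed level was 335 to 404 CPM in the controls against 307 to 355 CPM with the mimic. Olig1 was the most abundant, and Mag, a defining myelin gene, had 0 to 4 counts per sample. Microglia markers summed to 11.3 to 11.9 CPM in the controls and 11.5 to 12.2 CPM with the mimic, with Csf1r most abundant. Fibroblast and vascular markers summed to 166 to 246 CPM in the controls against 256 to 347 CPM with the mimic, without overlap, with Col1a2 most abundant and Cldn5 at 0 to 1 counts. Of the 7 tested, Rgs5, a pericyte gene, was lower by 0.66 (edgeR adjusted p = 0.023). That call was lost without control 1 or mimic 2, 4 or 5 (edgeR adjusted p up to 0.076). The other 6 were higher and did not pass. Their log2 fold changes were 0.56 for Col1a2, 0.53 for Dcn, 0.47 for Col1a1, 0.46 for Lum, 0.15 for Pdgfrb and 0.053 for Pecam1. Neural progenitor markers summed to 153 to 158 and 147 to 164 CPM, with Nes most abundant and Eomes at 0 to 13 counts. The part of these differences in summed marker levels in the CADM values was not tested, and in such bulk samples fewer cells of a type and less RNA per cell cannot be told apart.

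The comparison of mimic with control asked whether the microRNA changes the level of the CADM messages. None of the 4 CADM genes was called at an adjusted p under 0.05. Of all tested genes, 2.85% (495 of 17365) were called, 1.77% lower and 1.08% higher in the mimic group. These values depended on the processing. Without control 1 the count was 218, and with total counts alone 185 genes were lower and 324 higher. At an unadjusted p under 0.05, 0 of the 4 passed, against 15.7% of all tested genes, and DESeq2 also called 0. The groups overlapped for all 4 genes, whereas they did not overlap for 2.89% of all tested genes. The fitted log2 fold changes (mimic minus control) ranged from -0.031 for Cadm2 to 0.053 for Cadm4 with a median of 0.039, where the median over all tested genes was -0.00015.

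Cadm1 (ENSMUSG00000032076, chromosome 9, 47530173 to 47857637, plus strand) is the best studied member and a synapse organizer of excitatory neurons. Its level in control samples ranged from 462 to 500.4 CPM with a median of 480.2 CPM. In mimic samples 1 to 5 it was 507, 489, 467, 494 and 523 CPM. Mimic 1 and 5 lay above every control sample and the other 3 lay within the control range, with 4 of 5 above the control median. The log2 fold change was 0.049 (SE 0.027, edgeR adjusted p = 0.405), and its 95% interval allowed a change between -0.467% and 7.47%.

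Cadm2 (ENSMUSG00000064115, chromosome 16, 66655421 to 67620908, minus strand), a neuronal member that binds Cadm1, was the most variable. It ranged from 168 to 189 CPM in control samples with a median of 172 CPM. In mimic samples 1 to 5 it was 186, 159, 145, 143 and 219 CPM. Mimic samples 2, 3 and 4 lay below every control sample, mimic 5 lay above every control sample, and mimic 1 lay within the control range. The log2 fold change was -0.031 (SE 0.109, edgeR adjusted p = 0.941), with a 95% interval of -17.4% to 16.0%. Its direction was set by single samples. Without control 2 the log2 fold change was 0.00085, without mimic 3 it was 0.025 and without mimic 4 it was 0.032, whereas without mimic 5 it was -0.13. The gene with the most seed matches therefore also had the widest interval, and a change of up to about that width was not detectable in these samples.

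Cadm3 (ENSMUSG00000005338, chromosome 1, 173333258 to 173367695, minus strand), the axonal partner of Cadm4, was the steadiest. It ranged from 531 to 565 CPM in control samples with a median of 547 CPM. In mimic samples 1 to 5 it was 565, 553, 559, 567 and 550.3 CPM. All 5 mimic samples lay above the control median, and 4 of them lay within the control range. The log2 fold change was 0.029 (SE 0.022, edgeR adjusted p = 0.614), with a 95% interval of -1.19% to 5.30%. The 3′ end of Cadm3 shares 361 bases of exon, 4.98% of its exon bases, with Ackr1 on the same strand, and how reads of that stretch were counted is not given in the sources used here. Ackr1 counts amounted to 8.37% to 9.31% of the Cadm3 counts in control and 9.18% to 9.39% in mimic samples. The level of Ackr1 was 48.3 and 51.9 CPM (log2 fold change 0.11, edgeR adjusted p = 0.120).

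Cadm4 (ENSMUSG00000054793, chromosome 7, 24482023 to 24504539, plus strand) ranged from 197 to 222 CPM in control samples with a median of 213 CPM. In mimic samples 1 to 5 it was 224, 225, 221, 218 and 208 CPM. Of these, 4 lay above the control median, and mimic 1 and 2 lay above every control sample. The log2 fold change was 0.053 (SE 0.028, edgeR adjusted p = 0.381), with a 95% interval of -0.350% to 8.04%. Raw counts per sample were 8269 to 22744 for Cadm1, 2682 to 8089 for Cadm2, 9492 to 26051 for Cadm3 and 3565 to 10103 for Cadm4. Exons of Cadm2 also overlap those of the antisense gene 1700010K23Rik over 256 bases, but that gene had 0 to 1 counts per sample.

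**Figure D2:**
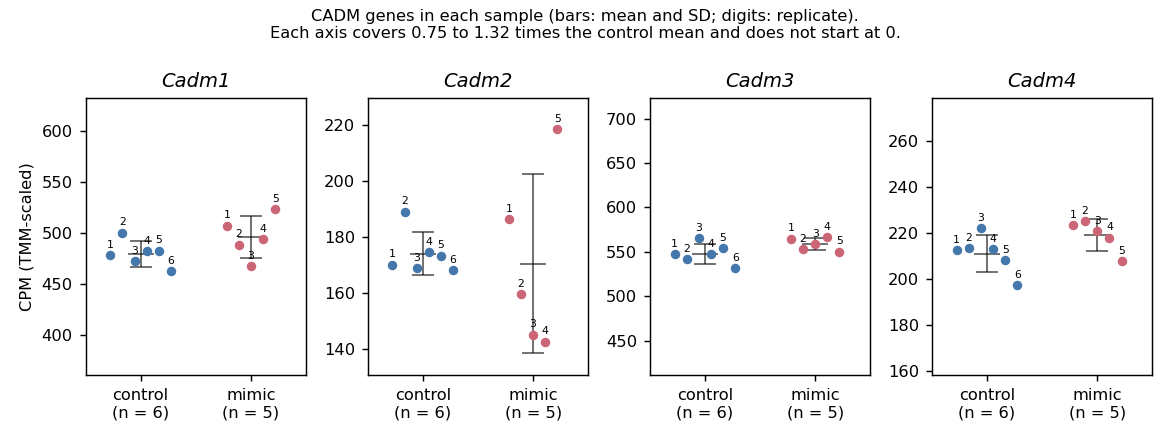
Level of each CADM gene in CPM in the 6 control (blue) and 5 mimic (red) samples; digits give the replicate number, and bars the mean and SD. The groups overlap for every gene, and Cadm2 spreads from 143 to 219 CPM in the mimic samples.

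The spread between samples set the 4 genes apart more than the group difference did. The coefficient of variation (SD over mean) of Cadm2 was 4.46% in control and 18.8% in mimic samples, where counting error alone gave 1.54% and 1.66%. In the mimic group 99.6% of the 2440 genes with at least 100 CPM varied less than Cadm2, and in the control group 85.2% did. The coefficient of Cadm3 was 2.07% and 1.28%, and 27.1% and 4.67% of these genes varied less. Cadm1 had 2.65% and 4.23%, and Cadm4 had 3.84% and 3.14%, beside medians of 2.79% and 3.24% over these genes. The difference in the spread of Cadm2 between the groups was not tested. Total counts of mimic samples 1 to 5 were 19773640, 26060379, 18353639, 24896412 and 20938546, and the part of depth in the spread of Cadm2 was not tested.

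Per kilobase of exon the order was Cadm4, Cadm3, Cadm1 and Cadm2 in 11 of 11 samples. Control means were 97.6 ± 3.74 (SD, n = 6), 75.6 ± 1.56, 45.9 ± 1.22 and 17.7 ± 0.792 CPM per kb, and mimic means were 101 ± 3.18 (SD, n = 5), 77.1 ± 0.987, 47.5 ± 2.01 and 17.4 ± 3.27 CPM per kb. In this order every neighbouring pair was separated in every sample. These lengths join all annotated exons, which are 10440 bases for Cadm1 and 2161 bases for Cadm4. When the longest coding transcript was used instead, 4482 bases for Cadm1, the upper 3 genes came together. Cadm1 then had 107 ± 2.84 (SD, n = 6), Cadm3 106 ± 2.20, Cadm4 97.6 ± 3.74 and Cadm2 18.2 CPM per kb in control samples. With this length Cadm1 ranked first in 5 of 6 control and 4 of 5 mimic samples and Cadm3 in the others, while the control means of Cadm1 and Cadm3 differed by less than their SDs. The order of the upper 3 thus depended on the length used, while Cadm2 was lowest with both. By exon length, the CADM levels exceeded those of 84.2% (Cadm2), 95.1% (Cadm1), 97.5% (Cadm3) and 98.2% (Cadm4) of 17312 tested genes with an exon length.

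**Figure D3:**
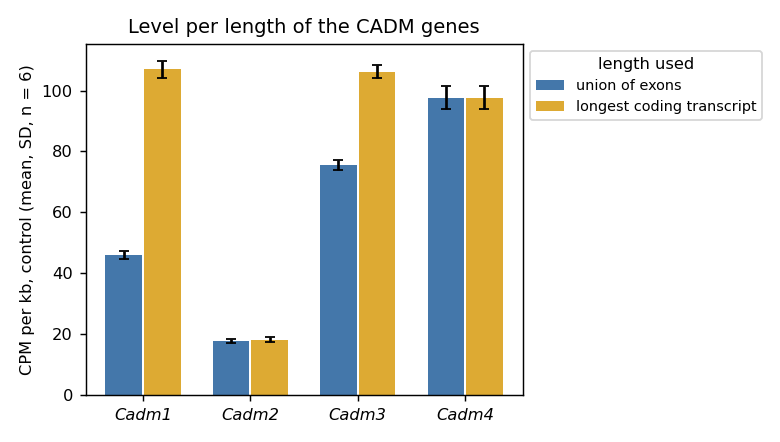
Level of each CADM gene per kilobase in control samples (bars mean, error bars SD, n = 6), with the length taken over all exons (blue) or over the longest coding transcript (yellow). Cadm2 is lowest with both lengths, and Cadm1 moves from 45.9 to 107 CPM per kb.

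The share of each member in the family differed little between the groups. Of the summed CADM level per kb of exon, Cadm4 made up 41.2% ± 0.656 in the controls (SD, n = 6) against 41.6% ± 1.41 with the mimic (SD, n = 5). Cadm3 made up 31.9% ± 0.491 and 31.7% ± 0.637, and Cadm1 19.4% ± 0.439 and 19.5% ± 0.648. Cadm2 made up 7.49% ± 0.307 and 7.13% ± 1.27. Each of these shares differed between the groups by less than 1 SD of the mimic samples. The ratio of Cadm1 to Cadm2, the pair known to bind each other, was 2.59 ± 0.0552 in control samples with a range of 2.49 to 2.64, and 2.79 ± 0.396 in mimic samples with a range of 2.25 to 3.25. The control range of this ratio thus lay within the mimic range. The shares depended on the length used. With the longest coding transcript, the control shares were 32.5% for Cadm1, 5.53% for Cadm2, 32.3% for Cadm3 and 29.7% for Cadm4.

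The members did not vary together as one block. Over the 11 samples and 6 pairs of genes, log2 CPM of Cadm3 and Cadm4 gave Pearson's r = 0.787 (permutation p = 0.0062, Benjamini-Hochberg adjusted p over the pairs 0.0372) and Spearman's rho = 0.600 (permutation p = 0.0555, adjusted 0.216). Without the 2 samples farthest from the median of Cadm3, r was 0.637, and within the control samples it was 0.833 (exact permutation p = 0.0667, adjusted 0.20), with rho = 0.429. Cadm1 and Cadm2 gave r = 0.653 (permutation p = 0.0333, adjusted 0.10) and rho = 0.573 (permutation p = 0.0719, adjusted 0.216). Without the 2 samples farthest from the median of Cadm1, r fell to 0.199, so that the pooled relation did not hold without those samples. Within the control samples r was 0.923 (exact permutation p = 0.0056, adjusted 0.0333) and rho was 0.943 (exact permutation p = 0.017, adjusted 0.10). Within the 5 mimic samples, too few for a relation to be tested here, r was 0.869 for Cadm1 and Cadm2 and 0.436 for Cadm3 and Cadm4. The other 4 pairs had r between -0.327 and 0.213.

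The genes most like each member were taken as a description, and no gene was among the closest of more than 1 member. Among 13927 other genes averaging 1 CPM or more, the genes whose log2 CPM followed Cadm2 most closely were Ube2v2, a variant ubiquitin-conjugating enzyme (r = 0.977), and Sh3bgrl, a small adaptor-like protein (r = 0.976). Those closest to Cadm1 were Prkacb, a catalytic subunit of protein kinase A (r = 0.962), and 4732491K20Rik (r = 0.947). Those closest to Cadm3 were Osbpl5, a lipid transfer protein (r = 0.956), and Gm1673 (r = 0.950). Those closest to Cadm4 were Use1, a SNARE of transport between Golgi and endoplasmic reticulum (r = 0.966), and the circadian transcription factor Dbp (r = 0.938). All values are over the same 11 libraries, which the genes share, and the genes were picked for their high r. No p is given for that reason.

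Cadm2 had 117 genes with r above 0.9, Cadm3 had 40, Cadm4 had 12 and Cadm1 had 5. The companions of Cadm2 had a median 3′ UTR of 3132 bases with 35.3% G and C, beside 1284 bases and 44.5% over all genes compared. Those of Cadm3 had a median of 931 bases with 53.8% G and C, and those of Cadm4 1142 bases with 52.9%. Those of Cadm1, of which 3 had an annotated 3′ UTR, had a median of 3248 bases with 40.9%. Cadm2 itself has a long 3′ UTR poor in G and C, and Cadm3 and Cadm4 have the 3′ UTRs richest in G and C of the family. In length Cadm3 differed from its companions, with 3763 bases. Whether base composition, RNA quality or length moves these values between libraries was not tested.

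**Figure D4:**
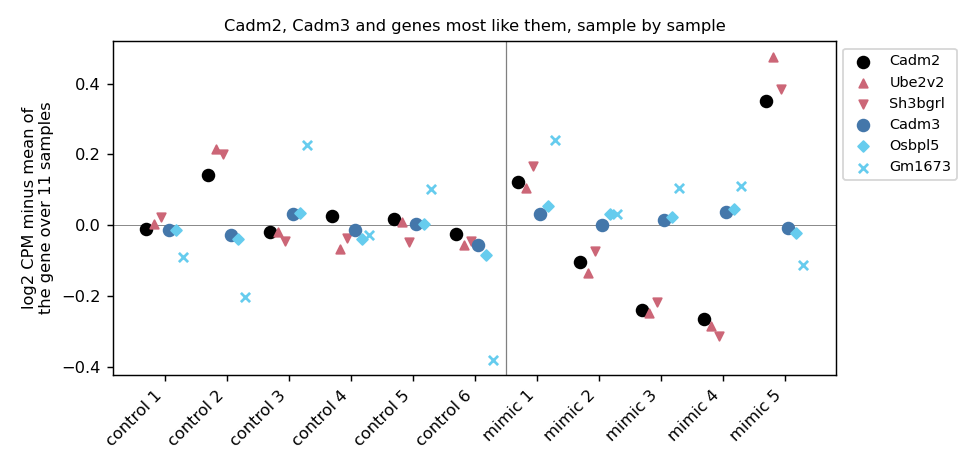
log2 CPM of Cadm2 (black) and Cadm3 (blue) and of genes most like them in the 11 samples, as the difference from the mean of each gene over the samples. Cadm2, Ube2v2 and Sh3bgrl are lowest in mimic 4 and highest in mimic 5, while Cadm3 and Osbpl5 stay close to 0 and Gm1673, which follows Cadm3 at a low level, spreads from -0.38 to 0.24.

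The intracellular partners of the CADM proteins were given by a list of 15 genes, all tested. Over all tested genes 1.77% were called lower and 1.08% higher, with a median log2 fold change of -0.00015. Of the 15 partners, 1 was lower, 0 were higher and 14 did not pass, and the median log2 fold change was -0.0078. The one called was Lin7a, a PDZ scaffold that forms a complex with Cask and Apba1, at 172 ± 7.27 CPM (SD, n = 6) in the controls against 157 ± 8.99 CPM (SD, n = 5) with the mimic. Its log2 fold change was -0.14 (edgeR adjusted p = 0.029). The call was lost when single libraries were left out, namely control 1, 2, 5 or 6 or mimic 2, 3 or 4, and with total counts alone, and the adjusted p ranged from 0.00023 to 0.119 over the alternatives. Among the genes named here as called, the longest 3′ UTRs of Lin7a and Ncam2 held no match of the mimic's seed core. That of Slc1a2, called lower, held 2 matches of TGAATGT and 6 of the core, and that of Rgs5, also lower, held 2 of the core. That of Kirrel, called higher, held 1 of GAATGTA and 2 of the core. These 3′ UTRs were 9250 (Slc1a2), 3473 (Rgs5) and 4551 bases (Kirrel) long, and a longer one offers more room for any match. The predicted target list of the study for miR-181a-5p named none of these called genes. Whether any of these matches is a site in use was not tested. Apba1 had the highest level of the 15 partners, 55.7 CPM per kb in control samples.

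**Figure D5:**
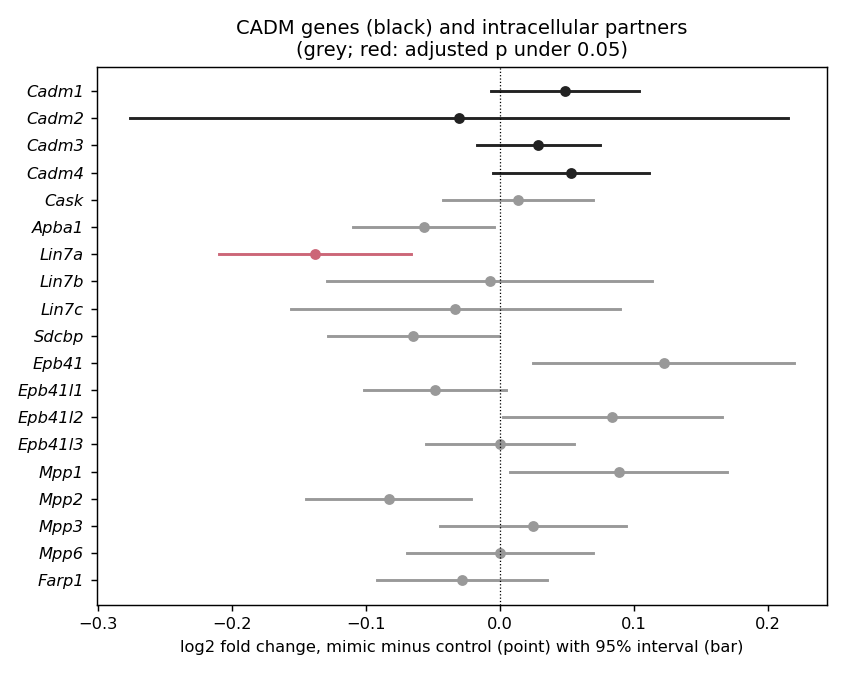
log2 fold change (mimic minus control, points) with 95% intervals (bars) of the 4 CADM genes (black) and 15 intracellular partners (grey; red where the adjusted p was under 0.05). The intervals of all 4 CADM genes include 0, that of Cadm2 is the widest shown, and Lin7a is the sole gene called.

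The nectins and their linker to actin, afadin, form the related adhesion system. Of 6 such genes tested, 0 were lower and 0 were higher by edgeR, with a median log2 fold change of -0.020, and afadin (Afdn) had the highest level, 17.9 CPM per kb. Among 9 proteases that can shed or cut such proteins, 0 were lower and 0 were higher, with a median of 0.021, and Ncstn, a subunit of gamma-secretase, had the highest level, 22.9 CPM per kb. Among 27 other adhesion proteins of the immunoglobulin superfamily, 1 was lower and 1 was higher, with a median of -0.0029. Beside these lists, 2.85% of all tested genes were called, 1.77% lower and 1.08% higher. Ncam2, a neural cell adhesion molecule, was lower, at 76.2 CPM in the controls against 69.0 CPM with the mimic (log2 fold change -0.15, edgeR adjusted p = 0.0078). Kirrel, a nephrin-like adhesion protein, was higher, with 9.56 and 12.5 CPM (0.39, edgeR adjusted p = 0.011). The highest level of that list was that of Cntn1, an axonal contactin, at 92.3 CPM per kb of exon, beside 97.6 CPM per kb for Cadm4.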

How the data were processed

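The authors aligned 50 bp single-end reads with STAR 2.5.2b, counted them per Ensembl gene with featureCounts (Subread 1.5.1) on GRCm38 and deposited raw counts per sample. The deposited normalized signal (counts divided by a size factor) held 16921 genes and served for an alternative alone; 444 tested genes were not in it. No value column was left unassigned. Strand and multi-mapping options and the annotation release are not given in the sources used here. Symbols, exons and 3′ UTRs came from GENCODE M21, matched by 48349 of 48709 gene IDs, and mature microRNAs from RefSeq. Oligonucleotide sequences came from the study's supplementary list.

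Groups followed the sample titles. Genes that reached 5 counts in 50% or more of the samples were tested with the two-sided edgeR 4.0.16 quasi-likelihood test (R 4.3.3; TMM, robust, group alone), adjusted by Benjamini-Hochberg over all 17365 genes and called under 0.05. Filter and threshold follow the study, whose tool, DESeq2 (1.42.0 here), was an alternative, as was limma 3.58.1 with a pseudocount of 1. The scripts were tested on simulated data. Correlations used log2 CPM with a prior count of 2 and 100000 permutations. Total counts limit precision; a count of 0 allows up to 3 counts, 0.063 to 0.175 CPM, and intervals cover counting error and sample spread alone, since reads are not independent molecules.

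The members and lists were chosen with earlier results of these data known. Named were all members, from each pathway list the called genes (at most 3) and that with the highest level per kb, for each member the 2 genes with the highest r, and from each marker list those at 0 and the most abundant; called markers and Ackr1 were added after their values were seen. Same-numbered samples did not deviate together (r -0.023 to 0.016 for 5 pairs), so the numbers were not used as pairs. One of the marker lists is not reported here.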

Additional observations from a re-analysis of the deposited data

Results flagged for a closer look

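Of 16 sets of values examined (the level and share of each CADM gene in each group), 1 held a sample that stood apart from its group. Cadm2 in control 2 was 189 CPM, while the other 5 control samples lay between 168 and 174 CPM, and the gap to the nearest sample was 0.698 of the whole range of the group. Chance marks about 1 in 20 such sets, which gives 0.8 of 16. Without control 2 the log2 fold change of Cadm2 was 0.00085.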

How the results depend on the processing

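The CADM genes were called under none of the 20 alternatives. Cadm1 (0.031 to 0.074), Cadm3 (0.024 to 0.047) and Cadm4 (0.040 to 0.074) kept their direction in all of them, with edgeR, DESeq2 or limma adjusted p from 0.147 to 0.736. Cadm2 reversed when single samples were left out (-0.13 to 0.032). At an unadjusted p under 0.05, 3 of the 4 genes passed with total counts alone (15.9% of all genes). With upper-quartile factors (15.6%) and without control 2 (15.2%), 2 passed. Without control 3 (15.6%), mimic 3 (14.7%) or mimic 5 (16%), 1 passed each. The median log2 fold change of all genes was 0.0185 with total counts alone and 0.0103 with upper-quartile factors. The count of genes called over the whole table, 495, was 785 with no count filter, 328 with the replicate block, which also leaves out control 6 and called 0 CADM genes, and 218 (without control 1) to 491 when single samples were left out; it was 237 without mimic 2 and 278 without mimic 4. The cause was not tested. The split of 307 lower and 188 higher was 185 and 324 with total counts alone, 226 and 234 with upper-quartile factors and 154 and 174 with the replicate block. Same-numbered samples shared only a number, and 0 of 5 mimic samples correlated best with their own. The same samples without the block, a fit chosen after seeing the data, gave 350, of which 202 were lower. With the longest coding transcript, the level of Cadm1 was 107 and of Cadm3 106 CPM per kb, and the control shares of Cadm1, Cadm2 and Cadm4 were 32.5%, 5.53% and 29.7%. For Cadm2, counting error was 1.66% of the mean in mimic samples and the observed spread 18.8%.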
